A study of Mus musculus with 12 samples.

Results

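Cytochrome P450 genes encode heme enzymes that insert 1 atom of oxygen into fatty acids, sterols, steroids, retinoids and foreign compounds. The genes described here are the protein-coding genes whose mouse symbol is Cyp followed by a family number, a letter and a gene number, and that had at least 10 counts in at least 3 of 12 retinal RNA-seq libraries. The rule uses counts over all 12 libraries and no comparison between groups, but Cyp2r1 passed only with its P38 libraries and Cyp4b1 only with those of P32, each with at least 10 counts in 2 libraries of the other conditions. The deposited counts held 93 protein-coding genes of that form in 16 families, and 25 of them in 10 families passed. By the same rule on counts, 15082 of 21906 protein-coding genes passed.

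P450 enzymes of the endoplasmic reticulum receive electrons from the reductase POR, and those of mitochondria receive them from ferredoxin and its reductase. In the eye the family is known from inherited disease: human CYP1B1 is mutated in congenital glaucoma, and CYP4V2, the counterpart of mouse Cyp4v3, in Bietti crystalline dystrophy, in which photoreceptors and the retinal pigment epithelium (RPE) degenerate. CYP26 enzymes break down retinoic acid, and CYP27A1, CYP46A1, CYP39A1 and CYP7B1 hydroxylate cholesterol or its oxidized forms, the route by which the retina disposes of sterol.

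The study asked which retinal genes respond when the homeobox gene Otx2 is deleted from adult photoreceptors. RNA came from whole retinas, including RPE, of 3 P30 control mice (mice 1 to 3, killed at P30 without a deletion) and of 9 conditional knock-out (cKO) mice given 1 intraperitoneal injection of tamoxifen at P30, with 3 killed at P32 (mice 4 to 6), 3 at P34 (mice 7 to 9) and 3 at P38 (mice 10 to 12), which is 2, 4 and 8 d later. The cKO mice were Crx-CreERT2;Otx2 flox/flox on a 129/SV background, the labels call the controls Control_Crx without naming their alleles, and the Crx promoter limits Cre to photoreceptors, so that Otx2 stays in bipolar cells and RPE. By Xist and Y-linked genes, the 3 P30 mice were female, and 1 of the P32 mice, 2 of the P34 mice and 2 of the P38 mice were male. Age, tamoxifen and deletion differ together between the groups and cannot be told apart. The 3 comparisons with P30 share the same control mice.

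Library totals ranged from 29701483 to 60145034 counts, which puts 3 counts at 0.0473 to 0.102 CPM, the counts of a gene scaled to the same effective total in each library. Otx2, whose deletion removes an exon and not the transcript, had 293 to 328 CPM in the P30 mice and 307 to 377 CPM in the cKO mice, so its gene total does not check the deletion. The retina label fits the 6 rod photoreceptor markers, which summed to 65350 to 71629 CPM in the P30 mice, 59666 to 64824 CPM at P32, 73977 to 98679 CPM at P34 and 71997 to 108760 CPM at P38. All P32 mice were thus below, and all later mice above, the P30 mice in rod markers. RNA of neighbouring tissues was uneven. The 8 lens markers summed to 280 to 765 CPM in P30 mouse 2, P32 mouse 6 and the P34 mice, and to 5320 to 45771 CPM in the other libraries. The 5 ciliary body and iris markers summed to 116 to 121 CPM in the P30 mice, 83.6 to 121 CPM at P32, 45.2 to 52.6 CPM at P34 and 75.9 to 87.6 CPM at P38. The 8 pigment cell markers summed to 465 and 481 CPM in P30 mice 2 and 3 and to 62.3 to 174 CPM in the other libraries. In P30 mice 2 and 3, Pmel had 258 and 202 CPM and Tyrp1 had 114 and 107 CPM. Rpe65 and Ttr, of the same list, were lowest of all mice in P30 mouse 2, at 5.59 and 28.4 CPM. In P30 mouse 3 they had 21.5 and 99.5 CPM. No marker in these lists was at 0 in all libraries. Fewer cells of a type and less RNA per cell cannot be told apart in such samples, and the part of these differences in the results below was not tested.

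The expressed P450 genes were of modest level. Levels are compared between genes as RPKM, CPM per kilobase of exon. The 25 members lay between percentiles 2.45 and 56.7 of the mean RPKM of the 14985 protein-coding genes tested, and 3 of them exceeded the median. Of all members, 13 had a mean of at least 2 RPKM, 6 had 0.5 to 2 RPKM and 6 had less than 0.5 RPKM. The highest mean was that of Cyp2d22, a member of the drug-metabolizing 2D subfamily, at 6.57 ± 0.970 RPKM (SD, n = 12). Cyp4f13, of a subfamily that hydroxylates fatty acids and leukotrienes at their end, followed at 5.65 ± 0.945 RPKM, Cyp20a1, an enzyme without an established substrate, at 5.49 ± 0.346 RPKM, and Cyp46a1, the neuronal cholesterol hydroxylase, at 4.99 ± 0.448 RPKM. These 4 genes held 41.3% of the summed RPKM of the members. In the order of the 25 means, 17 of 24 neighbouring pairs differed by less than the larger SD of the pair, among them Cyp2d22 and Cyp4f13. The order at the top depends on the length used: with the longest transcript in place of all exons, Cyp4f13 came to 14.3 RPKM and led, followed by Cyp46a1 at 7.75 RPKM.

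**Figure D1:**
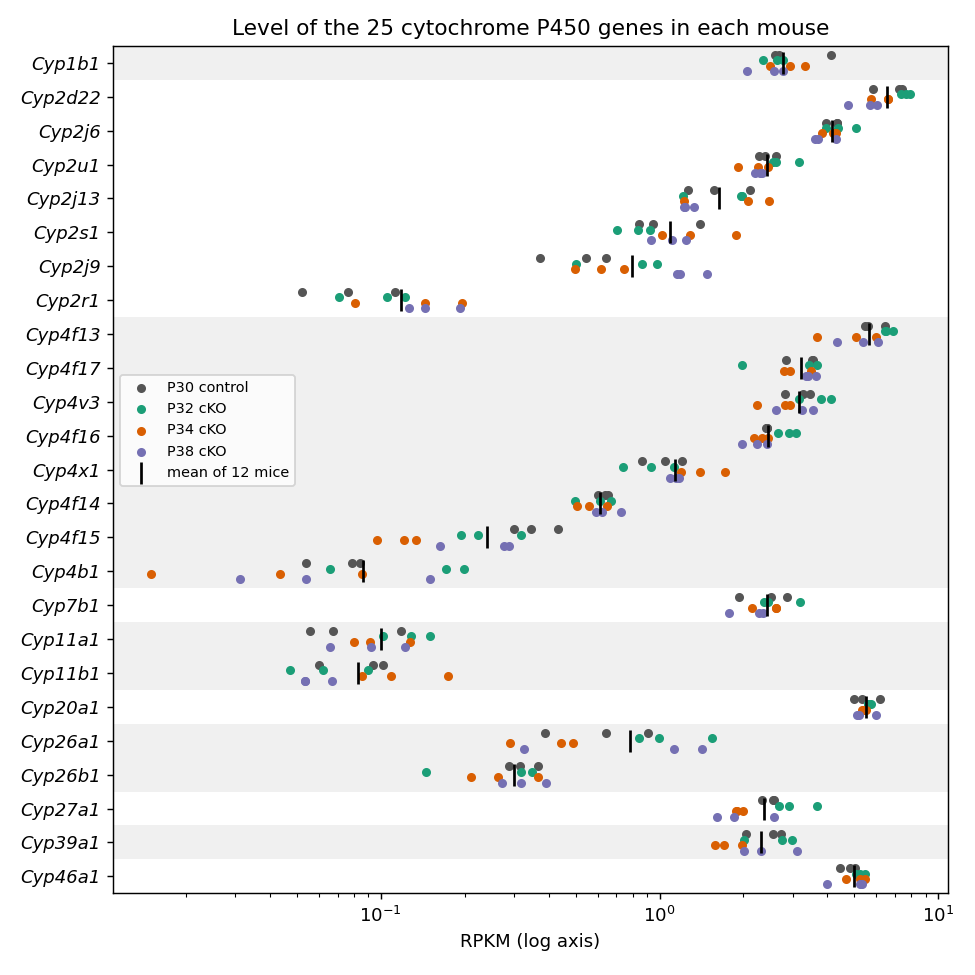
Level of the 25 cytochrome P450 genes in each of the 12 mice. The x axis is RPKM on a log axis, genes are grouped by family with shaded bands, dots are single mice colored by condition, and the black ticks are means of 12 mice. Levels run from 0.0831 RPKM (Cyp11b1) to 6.57 RPKM (Cyp2d22), and for 8 of the 25 genes all 4 conditions overlap, while 52.6% of all genes tested have 2 conditions that do not.

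Families 2 and 4 supplied most of the expressed genes. Family 2, which oxidizes foreign compounds and arachidonic acid, had 7 members among 48 genes of the form and 30.5% of the summed RPKM. Family 4, fatty acid hydroxylases, had 8 members among 17 genes and 30.1%. All 7 genes of the form in family 3, the main drug-metabolizing family of the liver, had at most 2 counts in any library. Protein-coding genes whose symbol differs from the form by its letters, such as Cyp3a41a and Cyp3a41b with 0 counts, are not included. Families 8 (bile acid synthesis), 17, 19 and 21 (sex steroid and corticoid synthesis) and 24 (vitamin D breakdown), with 1 gene each, had at most 5 counts in any library. Of the 68 genes that did not pass, 30 had no count in any library, which does not show that they are absent. The other 38 had at least 1 count, among them Cyp4f18, Cyp2j8, Cyp2f2 and Cyp1a1 with 67, 54, 47 and 39 counts in all and some in each of the 12 libraries. Just inside the limit stood Cyp4b1, with 10 counts in 4 libraries, and just outside Cyp4f18 and Cyp27b1, with 10 counts in 1 library each.

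Summed over the 25 members, the level was 54.6, 56.1 and 55.8 RPKM in the P30 mice and 60.9, 60.6 and 57.9 RPKM at P32. It was 52.1, 53.6 and 51.4 RPKM at P34 and 50.8, 52.5 and 53.8 RPKM at P38. The 3 P32 mice were thus above the 3 P30 mice, and the 6 later cKO mice were below them. The mean for P30, P32, P34 and P38 was 55.5 ± 0.833, 59.8 ± 1.70, 52.4 ± 1.16 and 52.4 ± 1.51 RPKM (SD, n = 3). The sum is a description and weighs the abundant genes most. In summed CPM, P32 and P34 touched or overlapped with P30. P32 mouse 6 and P30 mouse 2 both had 208 CPM, and P34 mouse 8 had 196 CPM beside 195 CPM in P30 mouse 1. The P38 mice, at 180, 189 and 192 CPM, were below the P30 mice in summed CPM too. The rod markers ran the other way, lower at P32 and higher at P34 and P38 than at P30, and their part in the summed level was not tested.

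EdgeR's quasi-likelihood test was run over 18628 genes for each age against P30, and a gene was called where the p, adjusted by the Benjamini-Hochberg method, was at most 0.05 with a log2 fold change (log2FC) of at least 0.5 in size. All 25 members were tested and none was called by edgeR at any age. At P32, 0 members were called (0% of all genes tested). At an unadjusted p of at most 0.05 with the same fold limit, 0 members were lower (1.77% of all genes) and 0 higher (1.13%), and DESeq2 called 0 (0.134%). The lowest adjusted p of a member at P32 was 0.698, and 20 of 25 log2FC were smaller than 0.5 in size. At P34, 0 members were called (0.66% of all genes). At an unadjusted p, 1 was lower (5.42%), Cyp4f15, and 0 higher (0.854%), and DESeq2 called Cyp4f15 (1.98%). At P38, 0 members were called (0%). At an unadjusted p, 0 were lower (2.66%) and 2 higher (0.805%), Cyp2j9 and Cyp2r1, and DESeq2 called Cyp2j9 (0.242%). Cyp2r1 passed the rule only through P38, so nothing is read from its place in a P38 count. The study, which used DESeq2, listed Cyp4f15 as lower at P34 and Cyp2j9 as higher at P38. The members had a median log2FC of 0.14, -0.10 and -0.01 for P32, P34 and P38, beside medians of -0.01, -0.0013 and -0.01 over all genes tested.

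**Figure D2:**
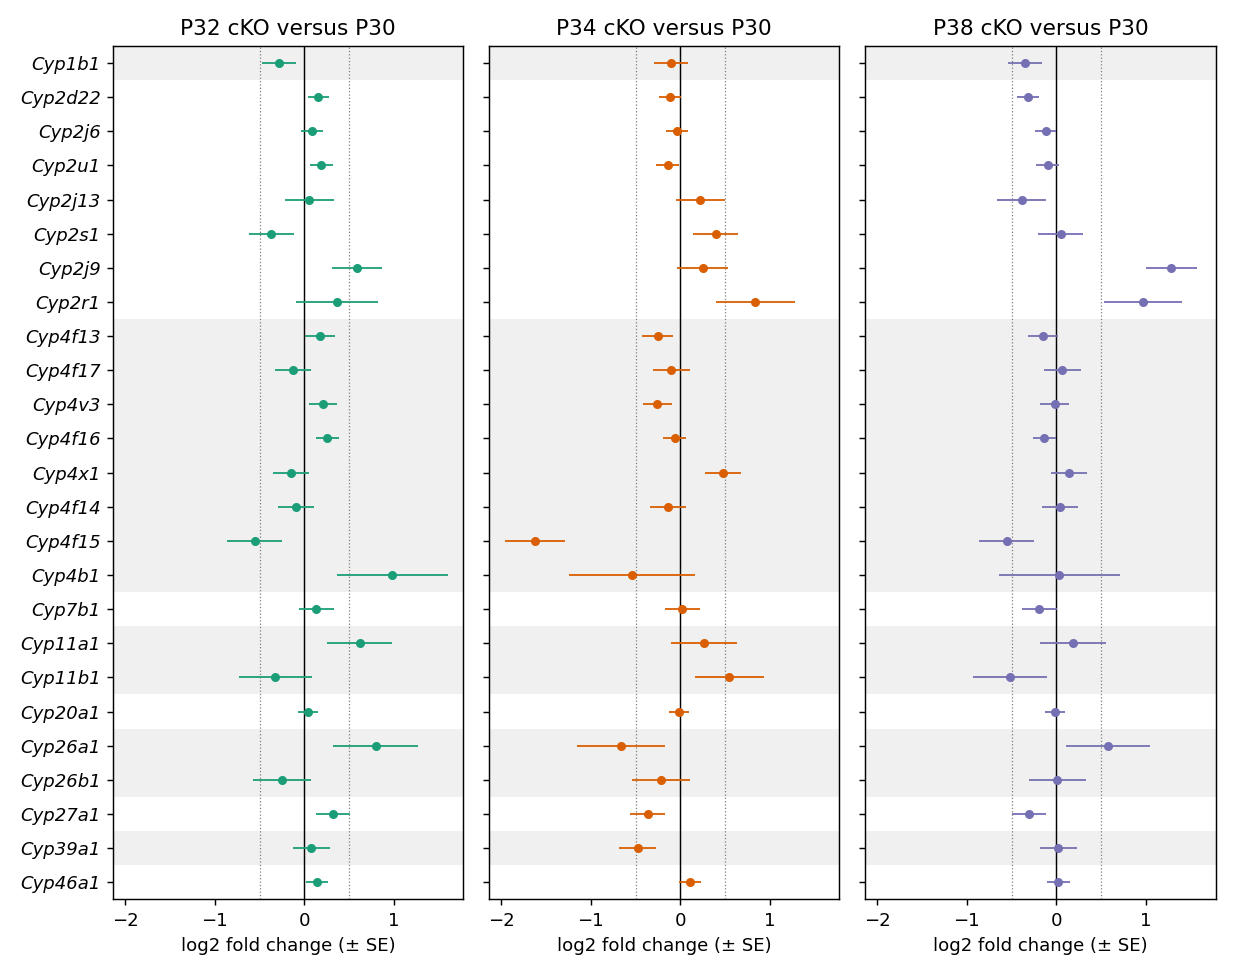
Log2 fold change of the 25 genes at P32, P34 and P38 against the 3 P30 mice. Dots are edgeR estimates, bars are ± 1 SE, dotted lines mark the fold limit of 0.5, and shaded bands separate families. Cyp4f15 stands out at P34 (-1.62) and Cyp2j9 at P38 (1.28), and at each age 20 of 25 genes lie within the dotted lines.

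Members were also counted by whether single mice overlapped. At P32, 4 members (Cyp4f13, Cyp4f16, Cyp27a1 and Cyp46a1) had all 3 mice above all P30 mice (5.26% of all genes) and 0 had all below (4.39%). At P34, 0 had all mice above (10.4%) and 3 (Cyp4f15, Cyp27a1 and Cyp39a1) all below (9.67%). At P38, 2 (Cyp2j9 and Cyp2r1) had all mice above (8.23%) and 1 (Cyp4f15) all below (7.96%). Cyp2r1 passed the rule only through its P38 libraries, so nothing is read from its place here or in the counts below. No member had its 9 cKO mice all below (0.478%) or all above (0.123%) the P30 mice. Between the cKO ages, 10 members had all P34 mice below all P32 mice (13.6% of all genes) and 2 had them above (14.8%). The 10 were Cyp2d22, Cyp2u1, Cyp4f13, Cyp4f15, Cyp4f16, Cyp4v3, Cyp20a1, Cyp26a1, Cyp27a1 and Cyp39a1, and the 2 were Cyp2s1 and Cyp4x1. At P38, 6 (Cyp2d22, Cyp2u1, Cyp4f13, Cyp4f16, Cyp7b1 and Cyp27a1) had all mice below P32 (13.2%) and 3 (Cyp2j9, Cyp2r1 and Cyp2s1) all above (13.3%). Against P34, 2 (Cyp4x1 and Cyp11b1) had all P38 mice below (4.58%) and 3 (Cyp2j9, Cyp4f15 and Cyp39a1) all above (5.36%). In all, 17 of 25 members, Cyp2r1 among them, had at least 1 pair of conditions without overlap (52.6% of all genes). The highest count among the 7 comparisons was that of P34 below P32, with 10 of 25 members beside 13.6% of all genes, a difference that was not tested.

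**Figure D3:**
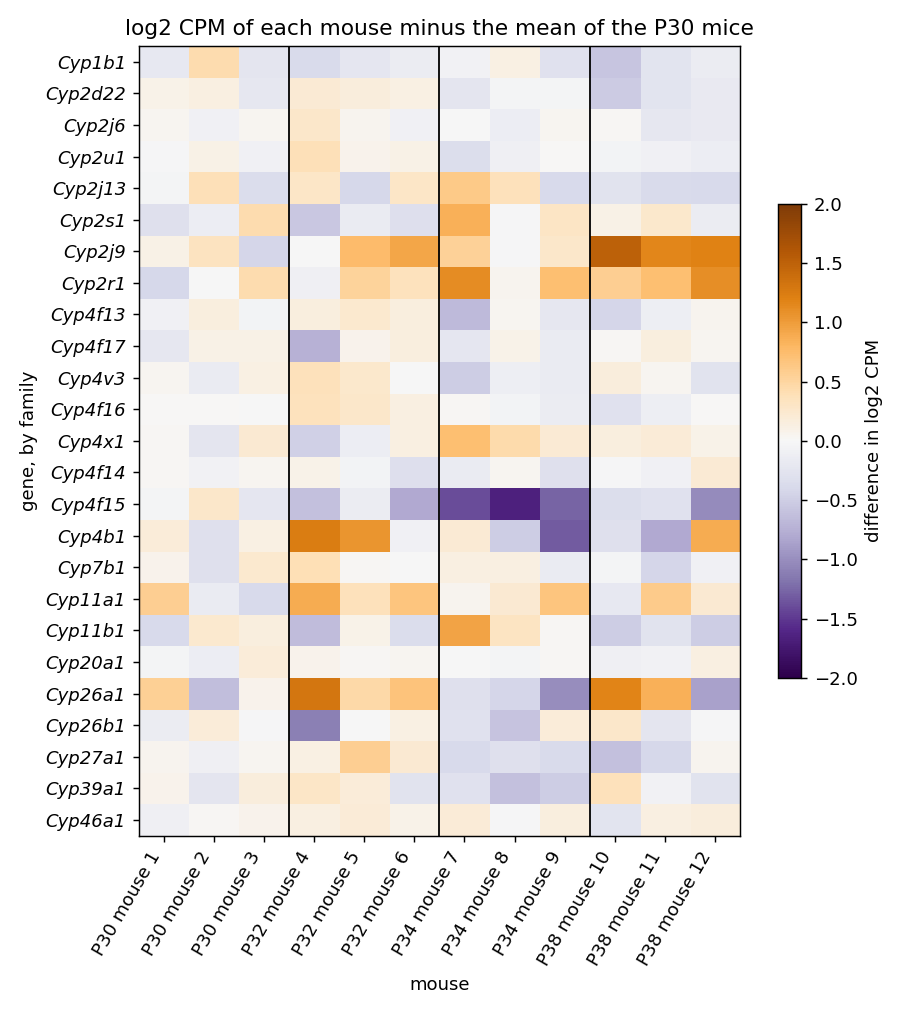
Difference of each mouse from the mean of the 3 P30 mice, in log2 CPM with a prior count of 2, for the 25 genes (rows, by family) and 12 mice (columns). Orange is higher and purple lower; the row of Cyp4f15 is darkest purple in the 3 P34 mice, and the row of Cyp2j9 darkest orange in the 3 P38 mice.

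Cyp4f15, a member of the fatty acid and leukotriene hydroxylase subfamily, lies at chr17:32685627-32703352 of GRCm38 on the plus strand. Its level was 0.789, 0.989 and 0.683 CPM in the P30 mice and 0.510, 0.724 and 0.444 CPM at P32. The P34 mice had 0.276, 0.220 and 0.305 CPM, and the P38 mice 0.631, 0.657 and 0.373 CPM. The 3 P34 mice were below every other mouse, and the P38 mice were below the P30 mice but overlapped with P32. The log2FC at P34 was -1.62 ± 0.331 (SE), with an unadjusted p of 0.000378 and an adjusted p of 0.0546 by edgeR's quasi-likelihood test, and DESeq2 gave an adjusted p of 0.0206. At P32 and P38 the log2FC was -0.56 and -0.55. These values rest on 9 to 10 counts per P34 library and 23 to 50 per P30 library. Without P32 mouse 6 or without P38 mouse 12, edgeR's adjusted p was 0.0457 and 0.0459, in fits that called 1.12% and 0.719% of all genes at P34. Between the cKO ages, the log2FC was -1.07 ± 0.340 for P34 against P32 and 1.07 ± 0.340 for P38 against P34, with adjusted p of 0.103 and 0.578. The adjusted p of Cyp4f15 for the 9 cKO against the 3 P30 mice was 0.292 by edgeR. The ciliary body and iris markers were also lowest in the P34 mice. The lens, pigment cell, smooth muscle, fibroblast, corneal epithelium and bipolar markers had their lowest median sum at P34 too. The rod, Müller glia, endothelial and microglia markers did not. The part of any of these tissues in the level of Cyp4f15 was not tested.

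The other 4 Cyp4f members had P34 values closer to those of P30, a difference between genes that was not tested. The 5 genes lie on chromosome 17 in a plus-strand group of 3 (Cyp4f17, Cyp4f16 and Cyp4f15, over 197 kb, with Cyp4f37 and Cyp4f40, which had 1 and 4 counts in all, between them) and a minus-strand pair (Cyp4f14 and Cyp4f13, over 42.3 kb). Their mean levels were 3.22 RPKM for Cyp4f17, 2.46 for Cyp4f16, 0.241 for Cyp4f15, 0.610 for Cyp4f14 and 5.65 for Cyp4f13. The P34 log2FC of Cyp4f17, Cyp4f16, Cyp4f14 and Cyp4f13 were -0.10 ± 0.204, -0.06 ± 0.128, -0.14 ± 0.203 and -0.25 ± 0.169, with adjusted p from 0.629 (Cyp4f13) to 0.916 (Cyp4f16). Cyp4f16 had 9.51, 8.94 and 8.13 CPM at P32 against 7.44, 7.47 and 7.37 CPM at P30, a log2FC of 0.25 ± 0.128 with an adjusted p of 0.698. Of the 50-base windows in its longest transcript, 26.5% also occur in other genes, Cyp4f37 first, and reads with more than 1 position were not counted; for Cyp4f13, Cyp4f14, Cyp4f15 and Cyp4f17 the share was 2.45 to 3.25%.

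**Figure D4:**
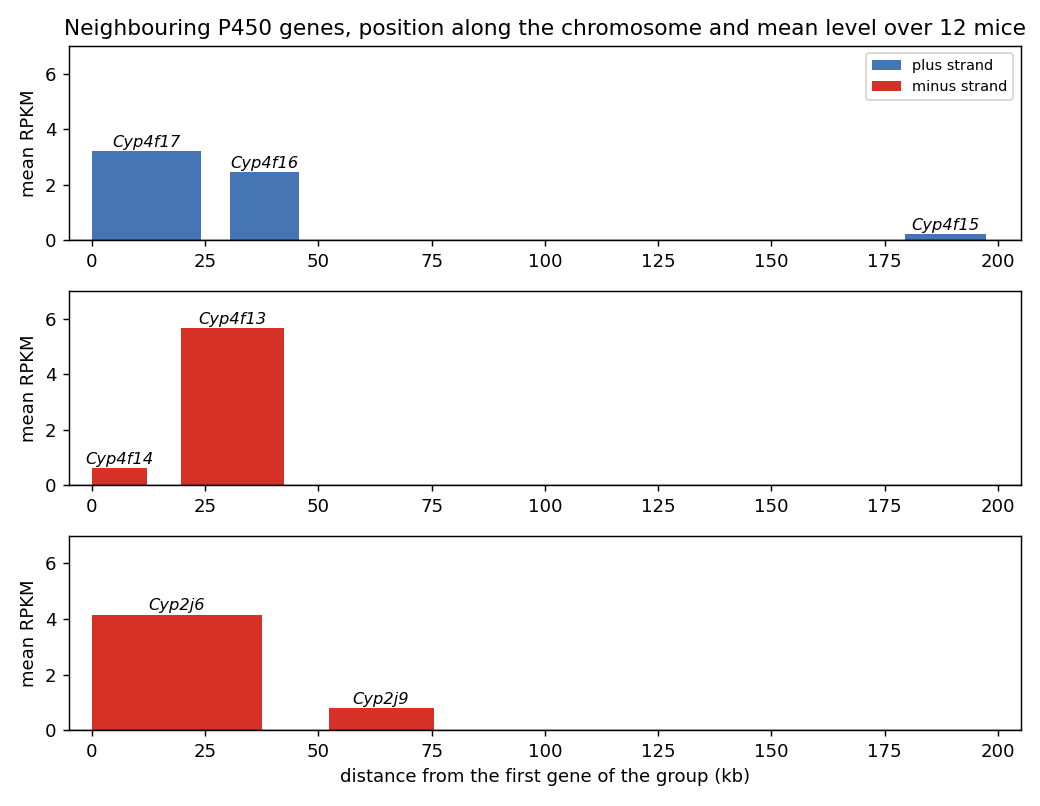
Members within 200 kb of another member, drawn to scale along the chromosome from the start of the first gene of each group (x axis, kb); the height is the mean RPKM of 12 mice and the color the strand. Neighbours differ in level: 5.65 RPKM for Cyp4f13 beside 0.610 for Cyp4f14, and 4.16 RPKM for Cyp2j6 beside 0.799 for Cyp2j9.

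Cyp2j9, a member of the 2J subfamily, lies at chr4:96568429-96591578 on the minus strand. Its level was 1.81, 2.14 and 1.25 CPM in the P30 mice, 1.68, 2.89 and 3.28 CPM at P32. The P34 mice had 2.49, 1.67 and 2.06 CPM, and the P38 mice 4.93, 3.85 and 3.94 CPM. The 3 P38 mice were above the other 9, which overlapped with each other. The log2FC at P38 was 1.28 ± 0.283 (SE), with an unadjusted p of 0.000720 and an adjusted p of 0.528 by edgeR, and DESeq2 gave an adjusted p of 0.0123. Against P34, the P38 mice were higher by 1.03 ± 0.283 on the log2 scale, with an adjusted p of 0.432. Over the 4 conditions Cyp2j9 had the lowest p of the members, 0.00305 by edgeR.

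Cyp2j6, the neighbour of Cyp2j9 at chr4:96516138-96553661, is of the same subfamily. It had 15.6, 14.3 and 15.6 CPM in the P30 mice and 15.4, 13.0 and 13.4 CPM at P38, with overlap, and its log2FC at P38 was -0.12 ± 0.121. Cyp2j13, the third 2J member, had a log2FC of -0.39 ± 0.273 at P38. The bases before the RefSeq starts of the 2 neighbours are printed to show how far these adjacent genes differ there, on the minus strand of GRCm38.p6, 5′ to 3′. Capitals mark GCGTG, the core bound by AHR with ARNT, CACGTG, an E-box, and GGGCGG, a GC box, as found on either strand; bases inside the GENCODE gene are left out.

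Cyp2j9 promoter, chr4:96591579-96591735: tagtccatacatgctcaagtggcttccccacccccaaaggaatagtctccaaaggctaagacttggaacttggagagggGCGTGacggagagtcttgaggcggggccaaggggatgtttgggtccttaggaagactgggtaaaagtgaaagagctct

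Cyp2j6 promoter, chr4:96553662-96553901: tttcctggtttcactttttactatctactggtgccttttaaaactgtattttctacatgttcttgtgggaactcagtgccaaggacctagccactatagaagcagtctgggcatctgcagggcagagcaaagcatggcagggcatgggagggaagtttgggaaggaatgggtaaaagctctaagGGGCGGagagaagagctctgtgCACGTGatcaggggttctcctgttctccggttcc

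Promoter windows of 250 bases were matched for 18 of 25 members in the RefSeq table (GRCm38.p6), which held 32851 windows of 27025 genes. A gene is counted where any of its windows holds a motif. The entries for Cyp2d22, Cyp2u1, Cyp4f17, Cyp4x1, Cyp7b1, Cyp11b1 and Cyp39a1 were not used here. TAATCC, the core sequence bound by OTX2 and CRX, was found on either strand in 0 of the 18 members, beside 7.21% of all genes with a window. GCGTG occurred in 8 of 18 (30.9% of all genes), CACGTG in 2 (6.86%), GGGCGG in 13 (35.4%) and CCAAT in 9 (37.5%). These are matches of letters and not sites. The median GC content was 55.8% in the member windows and 52.4% in all windows. Unlike the members, the genes with a window were not chosen by counts in these libraries. Differences between the shares were not tested. For Cyp4f15, the member with the lowest log2FC at P34, the bases on the plus strand are shown with a GC box and a CCAAT box, both on the other strand, in capitals.

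Cyp4f15 promoter, chr17:32685409-32685626: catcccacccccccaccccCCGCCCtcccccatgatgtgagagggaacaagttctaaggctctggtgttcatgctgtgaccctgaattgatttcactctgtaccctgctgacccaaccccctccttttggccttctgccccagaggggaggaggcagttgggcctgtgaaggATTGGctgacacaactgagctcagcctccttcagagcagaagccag

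Retinoic acid degradation is represented by Cyp26a1 and Cyp26b1. Cyp26a1 had 1.80, 0.767 and 1.28 CPM in the P30 mice and 3.06, 1.68 and 1.97 CPM at P32. The P34 mice had 0.966, 0.882 and 0.575 CPM, and the P38 mice 2.81, 2.23 and 0.645 CPM. The P34 mice were below all P32 mice and overlapped with P30, and P38 mouse 12 lay with the P34 mice while the other 2 P38 mice did not. The log2FC of P34 against P32 was -1.45 ± 0.490 (SE), with an adjusted p of 0.110 by edgeR and 0.0343 by DESeq2. The log2FC of P32, P34 and P38 against P30 were 0.79 ± 0.470, -0.66 ± 0.489 and 0.57 ± 0.470, and their adjusted p 0.698, 0.673 and 0.864. Cyp26b1 had 0.780 to 2.09 CPM with all 4 conditions overlapping.

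The gene is a known target of the acid it degrades. In its promoter, 2 half-sites AGTTCA stand 5 bases apart in direct repeat, the arrangement that retinoic acid receptors bind. Such a repeat, with each half-site read as AGGTCA or AGTTCA or GGTTCA or GGGTCA on either strand, occurred in 0.104% of all genes with a window and in 1 of the 18 members. It runs from 32 to 16 bases before the RefSeq start. On the printed plus strand the half-sites read TGAACT, in capitals beside a GC box.

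Cyp26a1 promoter, chr19:37697558-37697797: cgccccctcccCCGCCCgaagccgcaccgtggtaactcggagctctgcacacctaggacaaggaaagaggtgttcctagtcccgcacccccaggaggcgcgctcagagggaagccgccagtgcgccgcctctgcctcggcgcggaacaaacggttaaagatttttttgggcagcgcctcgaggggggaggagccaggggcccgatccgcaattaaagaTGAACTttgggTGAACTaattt

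Among 13 other genes of retinoic acid supply, binding and signaling, 1 was lower and 0 higher at P34 by edgeR with the adjusted p, where 0.66% of all genes were called, and none was called at P32 or P38. At an unadjusted p, 1 was higher at P32 (1.13% of all genes), 3 were lower at P34 (5.42%) and 0 were called at P38. DESeq2 called the same single gene at P34 (1.98%) and 0 at the other ages. The gene was Aldh1a3, an enzyme that makes retinoic acid, with 1.70, 1.49 and 2.44 CPM in the P30 mice and 0.387, 0.0980 and 0.440 CPM at P34. The groups did not overlap, and the log2FC was -2.63 ± 0.452 with an adjusted p of 0.0205. Aldh1a1, which makes retinoic acid as well, had 128, 62.6 and 106 CPM at P30 and 46, 34.9 and 38 CPM at P34, a log2FC of -1.32 ± 0.532 with an adjusted p of 0.424. Both genes and the ciliary body and iris markers were low in the 3 P34 libraries, where Cyp26a1 was low too. In P32 mouse 6 and P38 mouse 12, Aldh1a1 was as low (38.2 and 44.4 CPM), while Cyp26a1 was at 1.97 CPM in the first and 0.645 CPM in the second. The part of these genes and tissues in the level of Cyp26a1 was not tested.

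**Figure D5:**
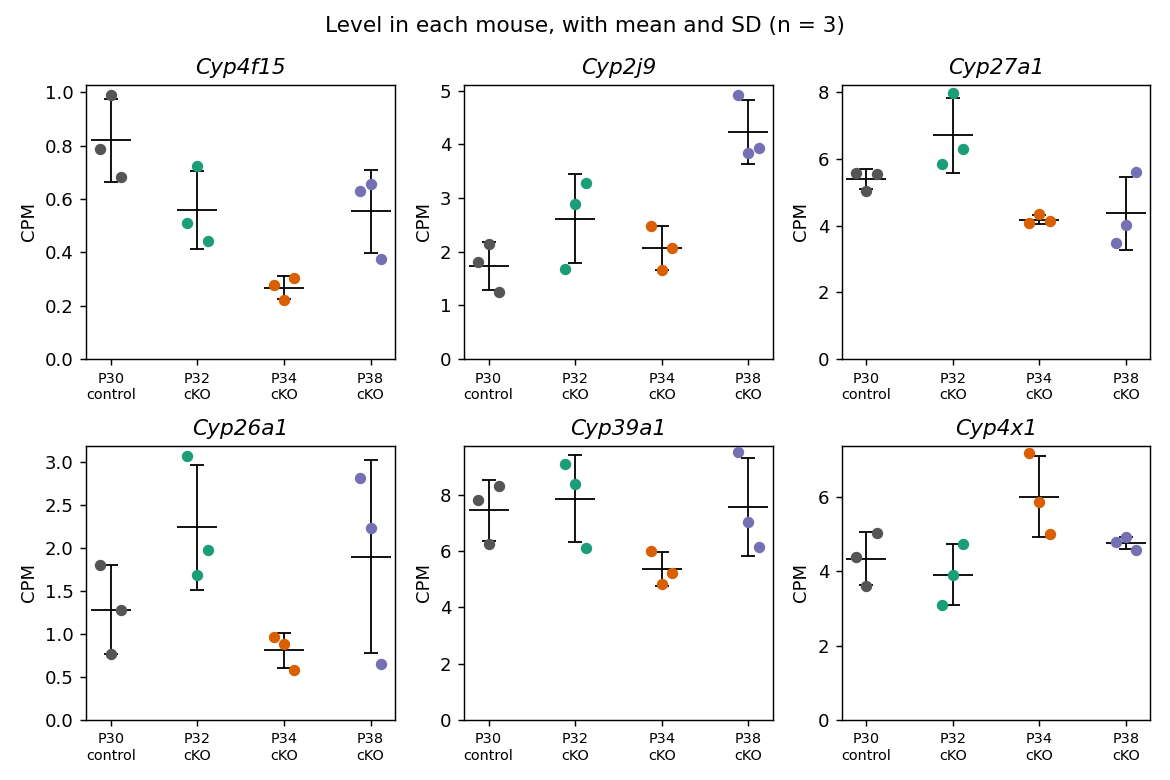
CPM of 6 members in each mouse (dots) by condition, with the mean (bar) and SD (whisker, n = 3); each y axis starts at 0. The P34 mice are the lowest 3 of 12 for Cyp4f15 and 3 P38 mice the highest for Cyp2j9, while Cyp27a1 is above P30 at P32 and below it at P34.

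Cyp27a1 was the one sterol enzyme with P32 and P34 on opposite sides of P30. This gene, a mitochondrial sterol hydroxylase at chr1:74713574-74737892, had 5.58, 5.05 and 5.56 CPM in the P30 mice, 5.85, 7.99 and 6.31 CPM at P32 and 4.09, 4.34 and 4.13 CPM at P34. At P38 it had 3.49, 4.03 and 5.60 CPM. All P32 mice were above and all P34 mice below the P30 mice, and P38 mouse 12 was above them while the other 2 P38 mice were below. Such a pattern, with all mice of 2 ages on opposite sides of P30, was held by 1 of 25 members and by 1.54% of all genes. The log2FC of P32, P34 and P38 against P30 were 0.32 ± 0.190, -0.37 ± 0.191 and -0.31 ± 0.191, and their adjusted p 0.698, 0.540 and 0.847. The log2FC of P34 against P32 was -0.68 ± 0.192, with an adjusted p of 0.0949 by edgeR and 0.0154 by DESeq2, and of 0.0420 by edgeR without P32 mouse 6.

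Cyp39a1, an oxysterol hydroxylase at chr17:43667425-43751431, had 7.81, 6.24 and 8.32 CPM in the P30 mice and 6.02, 4.83 and 5.21 CPM at P34. The P34 mice were below all P30 mice, with a log2FC of -0.48 ± 0.207 and an adjusted p of 0.457. At P32 it had 9.09, 8.40 and 6.11 CPM and at P38 9.51, 7.04 and 6.14 CPM, both overlapping with P30. Cyp46a1 had 14.6, 15.9 and 16.5 CPM at P30 and 17.2, 18.0 and 16.6 CPM at P32, a log2FC of 0.14 ± 0.126 with an adjusted p of 0.721. Cyp7b1, which hydroxylates oxysterols and neurosteroids, ranged from 3.85 to 6.90 CPM over the 12 mice, and its log2FC against P30 lay between -0.19 and 0.14. Its P38 mice were all below its P32 mice, with a log2FC of -0.33 ± 0.197 and an adjusted p of 0.326.

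Of 11 partner genes in sterol and steroid metabolism tested, 1 was called at P34 by edgeR with the adjusted p (0.66% of all genes), and none at P32 or P38. At an unadjusted p, 0 were called at P32, 2 were lower (5.42%) and 1 higher (0.854%) at P34, and 1 was higher at P38 (0.805%). DESeq2 called 1 at P34 too (1.98%) and 0 at P32 and P38. The gene called by both was Ch25h, a cholesterol hydroxylase that is not a P450 enzyme, with 0.615, 0.787 and 0.327 CPM in the P30 mice and at most 1 count in each P34 library, and an adjusted p of 0.0427. Cyp51, the P450 of cholesterol synthesis whose symbol lacks the letter and gene number of the rule, ranged from 47.6 to 66.4 CPM over the 12 mice, with a P34 log2FC of 0.19 ± 0.105 and an adjusted p of 0.557.

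Between the cKO ages, edgeR with the adjusted p called 0 of 25 members in each comparison. From P32 to P34 (0.242% of all genes), an unadjusted p gave 5 lower members (8.93%), which were Cyp4b1, Cyp4f15, Cyp26a1, Cyp27a1 and Cyp39a1, and 2 higher (5.49%), Cyp2s1 and Cyp4x1. Cyp4b1 passed the rule only through P32, so nothing is read from its place in this count. DESeq2 called 4 members there (8.65%): Cyp26a1 and Cyp27a1 lower, Cyp2s1 and Cyp4x1 higher. From P34 to P38 (0.199%), an unadjusted p gave 2 lower (0.8%), Cyp2j13 and Cyp11b1, and 4 higher (3.01%), Cyp2j9, Cyp4f15, Cyp26a1 and Cyp39a1, and DESeq2 called 0 (0.774%). From P32 to P38 (0%), 1 was lower (6.23%), Cyp27a1, and 1 higher (5.68%), Cyp2j9, and DESeq2 called Cyp27a1 (6.05%). In the 3 comparisons together, an unadjusted p gave 10 members, Cyp4b1 among them (20.4% of all genes). The DESeq2 test gave no adjusted p for 3 members between P32 and P34 and for 5 between P32 and P38. In P32 mouse 6 the lens markers summed to far less than in the other P32 mice. Its pigment cell, ciliary body and iris, smooth muscle, fibroblast and corneal epithelium markers were lower too. The rod, bipolar, Müller glia, endothelial and microglia markers were higher. The part of these differences in the next result was not tested. Without P32 mouse 6, edgeR with the adjusted p called more genes in general between P32 and the later ages. From P32 to P34 it then called 5 members (14.3% of all genes), Cyp4f15, Cyp4v3, Cyp27a1 and Cyp39a1 lower and Cyp4x1 higher, and from P32 to P38 it called 1 (10.2%), Cyp2d22, lower.

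Over the 4 conditions together, edgeR's F test with the adjusted p called 0 of 25 members (0.344% of all genes). At an unadjusted p it gave 6 (17.2%), which were Cyp2j9, Cyp4f15, Cyp27a1, Cyp2d22, Cyp4x1 and Cyp4f16. DESeq2's likelihood ratio test called Cyp2j9, Cyp27a1 and Cyp4f15 (7.65%).

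The other members among the 10 with the lowest p over the 4 conditions were Cyp2d22, Cyp4x1, Cyp2s1 and Cyp4v3. Cyp2d22 had 28.3, 29.0 and 22.8 CPM in the P30 mice, 30.9, 29.8 and 28.8 CPM at P32 and 18.5, 22.3 and 23.5 CPM at P38. P32 and P38 did not overlap, and the log2FC of P38 against P32 was -0.48 ± 0.123, with an adjusted p of 0.114. Cyp4x1, expressed in brain and active on the endocannabinoid anandamide, had 3.09, 3.90 and 4.73 CPM at P32 and 7.18, 5.85 and 5.01 CPM at P34. The P34 mice were above all P32 mice, and 1 of the P30 mice overlapped with P34; the log2FC of P34 against P32 was 0.62 ± 0.203, with an adjusted p of 0.106. Cyp4x1 overlaps an antisense gene, Cyp4x1os, which had 79 counts over the 12 libraries. Cyp2s1 had 3.48, 4.58 and 4.12 CPM at P32 and 9.28, 5.05 and 6.33 CPM at P34, a log2FC of 0.76 ± 0.255 with an adjusted p of 0.109. Cyp4v3 had 15.7, 14.4 and 12.1 CPM at P32 and 8.53, 11.2 and 10.8 CPM at P34 without overlap, and its log2FC against P30 was 0.21 ± 0.160, -0.26 ± 0.160 and -0.02 ± 0.160 at P32, P34 and P38.

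Cyp1b1, the glaucoma gene, had 15.7, 24.1 and 15.2 CPM in the P30 mice and 12.0 to 19.4 CPM in the cKO mice, so that P30 mouse 2 alone stood above the rest. Its log2FC was -0.28 ± 0.188, -0.11 ± 0.188 and -0.35 ± 0.188 at P32, P34 and P38. Cyp20a1 varied least of the 25 members over the 12 mice (SD of log2 CPM 0.0897), between 11.4 and 14.1 CPM, with log2FC from -0.01 to 0.04. Cyp2u1, a fatty acid hydroxylase of brain, ranged from 10.0 to 16.6 CPM, and an antisense gene that overlaps it, 4930534D22Rik, had 1095 counts in all; how strand was set in the counting is not given in the sources used here.

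The members near the count limit carry wide errors. Cyp2r1, a vitamin D hydroxylase, had 7, 8 and 8 counts in the P30 mice and 11, 13 and 12 counts at P38. It passed the rule only through the P38 libraries, so these counts are a description. Cyp4b1, a fatty acid and xenobiotic hydroxylase found in corneal epithelium, had 12, 6 and 6 counts at P30, 15, 15 and 6 at P32, then 7, 4 and 1 (P34) and 5, 3 and 10 (P38). The 5 corneal epithelium markers summed to 14.6 and 15.5 CPM in P32 mice 4 and 5, and to 0.607 to 8.90 CPM elsewhere. Cyp4b1 passed the rule only through the P32 libraries, so its counts are a description and nothing is read from this parallel. Cyp11a1, the enzyme that opens steroid synthesis, and Cyp11b1, which ends corticosteroid synthesis, stood at 0.267 to 0.720 and 0.150 to 0.552 CPM.

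The electron partners and regulators of the family were read from lists of their own. As background of the counts that follow, the share of all genes at an unadjusted p was 5.42% (lower) and 0.854% (higher) for P34, 2.66% (lower) and 0.805% (higher) for P38, and DESeq2 called 1.98% for P34. Of 15 electron transfer and heme genes, 0 were called at any age by edgeR with the adjusted p, and at an unadjusted p 0 were called at P32, 1 at P34 and 1 at P38, in both cases Hmox1, whose P30 libraries had 321, 234 and 3634 counts. Por, the common reductase, had 72.6 to 75.8 CPM in the P30 mice and 65.0 to 85.4 CPM in the cKO mice, with log2FC of 0.16 ± 0.0856, -0.08 ± 0.0856 and 0.02 ± 0.0856 at P32, P34 and P38. Of 14 nuclear receptors and xenobiotic regulators tested, 0 were called with the adjusted p, and at an unadjusted p 0 at P32, Ppara at P34 and Nr1i3 at P38. Ppara rested on P34 mouse 9, with 6, 10 and 164 counts in P34 mice 7, 8 and 9 and 12, 14 and 18 counts in the P30 mice, and its log2FC at P34 was 2.59 ± 1.05 with that mouse and -0.66 ± 0.581 without it. Ahr, the receptor that induces family 1 genes, had 53.4 to 58.4 CPM at P30 and 45.0 to 60.0 CPM in the cKO mice. Of 3 epoxide hydrolases tested, which act on epoxygenase products, 0 were called with the adjusted p, and at an unadjusted p 0 at P32, and Ephx1 was lower at P34 and P38. Across these lists and ages, DESeq2 called Ephx1 at P34 and otherwise 0 electron partners, regulators and epoxide hydrolases. Tbxas1 and Ptgis, P450 genes outside the rule's form, were called by neither tool; at an unadjusted p Tbxas1 was lower at P34 and Ptgis at P38.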

How the data were processed

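Whole-retina mRNA of 12 mice was sequenced, with 1 stranded library per mouse. The authors mapped 50 bp single reads to mm10 with STAR 2.5.3a, after bcl2fastq 2.17.1.14, and counted them with HTSeq 0.6.1p1 on Ensembl 93 genes. The authors deposited raw counts per gene, without normalization. Reads with more than 1 position were not counted. Symbols, positions and exon lengths came from GENCODE M21 on GRCm38 (54079 of 54146 genes named). The families and lists were chosen with earlier results of these data known.

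All 12 mice entered 1 fit of edgeR 4.0.16 (R 4.3.3; TMM; filter on low counts; 18628 genes) with 1 mean per condition. P-values were adjusted over all genes tested by the Benjamini-Hochberg method, and SE is the log2FC divided by the root of F. CPM and RPKM used TMM library sizes. DESeq2 1.42.0 was the alternative test. An exact permutation test of the 9 cKO against the 3 P30 mice was run for the 19 genes named by rule and is not reported, since 10 of them were named for a low p over the same mice. The procedure was tested on simulated counts. Libraries of a condition differed beyond counting noise (chi-square per degree of freedom 19.9 to 258), so each was taken as 1 replicate. Floors of 3 counts cover counting error only.

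Genes named are members called in any comparison, the top member of each family by RPKM, the 10 with the lowest p over the 4 conditions, members on one side of P30 in all 9 cKO mice and members within 200 kb of another; further members were named after their values were seen. Of the companion lists, called genes and Por, Cyp51, Ahr and Aldh1a1 are named by rule, and the others were chosen after their values were seen. Alternatives were DESeq2 size factors, other filters, a robust fit, fits of 2 conditions, a sex term, other thresholds and leaving out each mouse. Reads over Otx2 exons were not analysed here.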

Additional observations from a re-analysis of the deposited data

Results flagged for a closer look

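Cyp27a1 was singled out because all 3 P32 mice lay above, and all 3 P34 mice below, the 3 P30 mice. The log2FC of P34 against P32 was -0.68, which edgeR did not call after adjustment (adjusted p 0.0949) and DESeq2 did (0.0154). No other member had 2 ages on opposite sides of P30 in all mice, and 1.54% of all genes tested did. Groups of 3 mice are too small for the test of single outlying samples.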

How the results depend on the processing

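The count of members called by edgeR at P32 stayed at 0 under every alternative run, and no log2FC with an unadjusted p of at most 0.05 changed sign in any of the 550 refits of 29 pairs of a gene and a comparison. DESeq2's test called 1 member at P34 (1.98% of all genes), 1 at P38 (0.242%), 4 between cKO ages (8.65% from P32 to P34, 0.774% from P34 to P38 and 6.05% from P32 to P38) and 3 over the 4 conditions (7.65%). An unadjusted p gave 1 (5.42% lower and 0.854% higher over all genes), 2 (Cyp2r1 among them; 2.66% and 0.805%), 10 (Cyp4b1 among them; 20.4%) and 6 (17.2%). Leaving out single mice gave 0 to 0 at P32, 0 to 1 at P34 (1 without P32 mouse 6 or P38 mouse 12), 0 to 0 at P38, 0 to 6 between cKO ages (6 without P32 mouse 6, where 14.3% of all genes were called from P32 to P34 and 10.2% from P32 to P38) and 0 to 0 over the 4 conditions. DESeq2's size factors, other filters, the robust fit, fits of 2 conditions, the sex term and dropping the fold limit left each count at 0. The cause of the difference between the tools was not tested. With the longest transcript as length, 7 of 25 RPKM levels moved by more than their SD over 12 mice. No paired analysis was possible because no mice of different conditions share a number. Depth limits most the 5 of 25 members with under 10 counts in some library.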
